A study of Mus musculus with 30 samples.

Results

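The genes described here are 58 mouse genes of the synaptic vesicle and of the SNARE machinery that fuses it with the plasma membrane. They were taken by symbol from the 55335 genes of the deposited count table, after the table's Ensembl identifiers had been given symbols from GENCODE release M21. A protein-coding gene was a member if it was a numbered synaptotagmin (Syt), syntaxin (Stx), VAMP, SNAP, complexin (Cplx), synapsin (Syn1 to Syn3), SV2 protein (Sv2a to Sv2c) or Rab3 GTPase (Rab3a to Rab3d). The rule used no measured value. A filter on low counts left 52 members and 19368 genes in all for testing. The other 6 members were Syt8, Stx11, Stx19, Vamp5, Vamp8 and Cplx4, and they were not tested.

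Transmitter is released when a SNARE protein on the vesicle, a VAMP, zips together with a syntaxin and a SNAP-25 family protein on the plasma membrane. Synaptotagmins sense the calcium that triggers this step, complexins clamp and then assist it, synapsins hold the reserve vesicles, SV2 proteins sit in the vesicle membrane and Rab3 GTPases help to dock vesicles. In the nucleus accumbens the main projection neurons are GABAergic medium spiny neurons of the D1 and D2 dopamine receptor classes, which send this machinery to their axon terminals in other nuclei as well as to local collaterals.

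The libraries hold polyribosome-bound RNA of the nucleus accumbens of female mice, collected by RiboTag. In that method Cre recombinase switches a ribosomal protein to an HA-tagged form, and the tagged polyribosomes are pulled down with an antibody. D1-Cre-RT mice gave the D1 libraries and A2A-Cre-RT mice, in which Cre follows the adenosine A2A receptor gene, gave the D2 libraries. Class and mouse line therefore cannot be told apart. In both lines there were Control females, and females that had gone through chronic witness defeat stress and were grouped by their later social interaction as Resilient or Susceptible. Each of the 6 groups has 5 libraries, each library pools 4 mice with similar interaction scores, and punches were taken 24 hours after the interaction test. The labels state no animal age.

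Reads counted in genes ranged from 28996168 to 65882152 per library. The D1 markers Drd1, Pdyn, Tac1, Isl1, Chrm4, Eya1 and Sfxn1 summed to between 1736 and 2609 CPM (read counts scaled to a common TMM-adjusted library size) in the 15 D1 libraries and to between 280.7 and 1858 in the 15 D2 libraries. The 5 D2 markers used, Drd2, Adora2a, Penk, Gpr6 and Sp9, summed to between 1120 and 2771 CPM in D1 libraries and 4867 and 12799 in D2 libraries. Both pull-downs were thus richer in markers of their labelled class, and each held RNA of the other. The exception was D2 Resilient library 5, in which the D1 markers were at 1858 CPM, within the D1 range, and the D2 markers at 4867. D2 Susceptible libraries 1 and 2 detected 15822 and 16525 genes, against 19440 to 22375 in the other 28. In D1 Susceptible library 1, 54.9% of the gene counts fell on Gm42418 alone. For many, but not all, of the results named as resting on them, values without these libraries are given.

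Measured per kilobase of annotated exon, the most abundant members in both classes were Cplx2, Snap25, Vamp2 and Syt11. In D1 Control libraries Cplx2 stood highest at 511 ± 70.3 CPM per kb (SD, n = 5), followed by Snap25 at 459.5 ± 67.8, Vamp2 at 325 ± 10.1 and Syt11 at 316 ± 19.2. The same 4 genes led in D2 Control libraries, with Cplx2 at 570.3 ± 115, Snap25 at 371 ± 37.2, Syt11 at 336 ± 69.9 and Vamp2 at 328 ± 15.9 CPM per kb, the last pair within each other's spread. The order among the 4 depends on the length used: per kb of the longest transcript Snap25 led in D1 Control libraries at 639.4, followed by Vamp2 at 561.2 and Cplx2 at 511.0. In the VAMP and SNAP-25 families 1 isoform made up most of the summed level per kb in D1 Control libraries. Vamp2 made up 97.7% ± 0.178 (SD, n = 5) of Vamp1, Vamp2 and Vamp3 together. Snap25 made up 78.6% ± 2.56 of its family. The least abundant tested members were Syt15, Rab3a and Syn3.

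Rab3a needs a caution. It encodes the main Rab3 of brain synapses, yet it was listed at only 0.535, 0.834, 0.301, 0.517 and 0.34 CPM in D1 Control libraries and had 738 reads over all 30 libraries. The active zone gene Rims1 was likewise near 0, at 0.03 ± 0.0248 CPM (SD, n = 5). In GENCODE M21 the exons of Rab3a overlap those of the antisense gene Mpv17l2 over 29 bases only. The authors' annotation release, strand setting and counting mode are not stated in the labels, so the count cannot be read as the level of Rab3a.

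**Figure D1:**
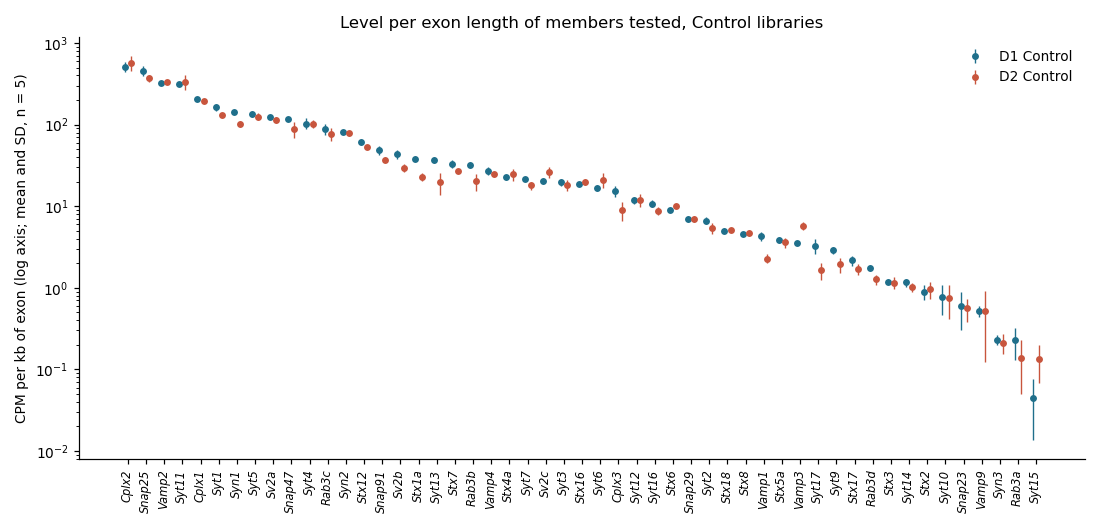
Level of 51 tested members in Control libraries, in CPM per kb of annotated exon on a log axis, as the mean and SD of 5 libraries. Cplx2, Snap25, Vamp2 and Syt11 stand highest in both classes, and D1 (blue) and D2 (red) points part at Syt13 and Vamp1, where D1 is higher, and at Vamp3, where D2 is.

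D1 libraries held more RNA of many members than D2 libraries. With the 3 conditions averaged, 26 of 52 members differed between the classes at an adjusted p under 0.05 (edgeR quasi-likelihood test, Benjamini-Hochberg over all genes), 25 higher in D1 and 1, Vamp3, lower. Of all genes tested, 29.3% passed, 13.8% higher and 15.5% lower in D1. In Control libraries 12 members passed, 11 higher and 1 lower, where 8.3% of all genes passed, 3.51% higher and 4.8% lower. In Resilient libraries 13 passed, 12 higher and 1 lower, against 6.65% of all genes, 2.75% higher and 3.9% lower. In Susceptible libraries 23 passed, 17 higher and 6 lower, against 23.9% of all genes, 10.5% higher and 13.4% lower. With only the 2 compared groups in the fit, 10 passed in Susceptible libraries, 9 higher and 1 lower (5.48% of genes). The 2 classes did not overlap for 11 members in Control (11.7% of genes), 16 in Resilient (9.7%) and 9 in Susceptible libraries (8.92%). The median log2 difference, D1 minus D2, was 0.15 over the members and 0.00455 over all genes in the averaged comparison. It was 0.13 and -0.00282 in Control, 0.12 and -0.00346 in Resilient, and 0.18 and 0.0167 in Susceptible libraries.

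The 3 conditions share no library, and 9 members passed in each of them in the same direction. Syt1, Syt13, Syt17, Stx1a, Vamp1, Syn1, Sv2b and Rab3b were higher in D1, and Vamp3 was lower. These are 17.3% of the tested members, where 4.01% of all genes passed in each condition with 1 sign. They are 75% of the members that passed in Control, 69.2% of those in Resilient and 39.1% of those in Susceptible libraries. For Stx1a, Syn1 and Vamp1 all 15 D1 libraries lay above all 15 D2 libraries, a separation seen for 1.18% of genes in either direction. Without D2 Susceptible libraries 1 and 2 the Susceptible count was 15 (10.4% of genes), the Control count 21 (15.3%) and the Resilient count 18 (11.3%), and each of the 9 members still passed in each condition. Without all 4 libraries that stand apart the counts were 15 (10.6% of genes), 21 (16.2%) and 19 (12.5%).

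**Figure D2:**
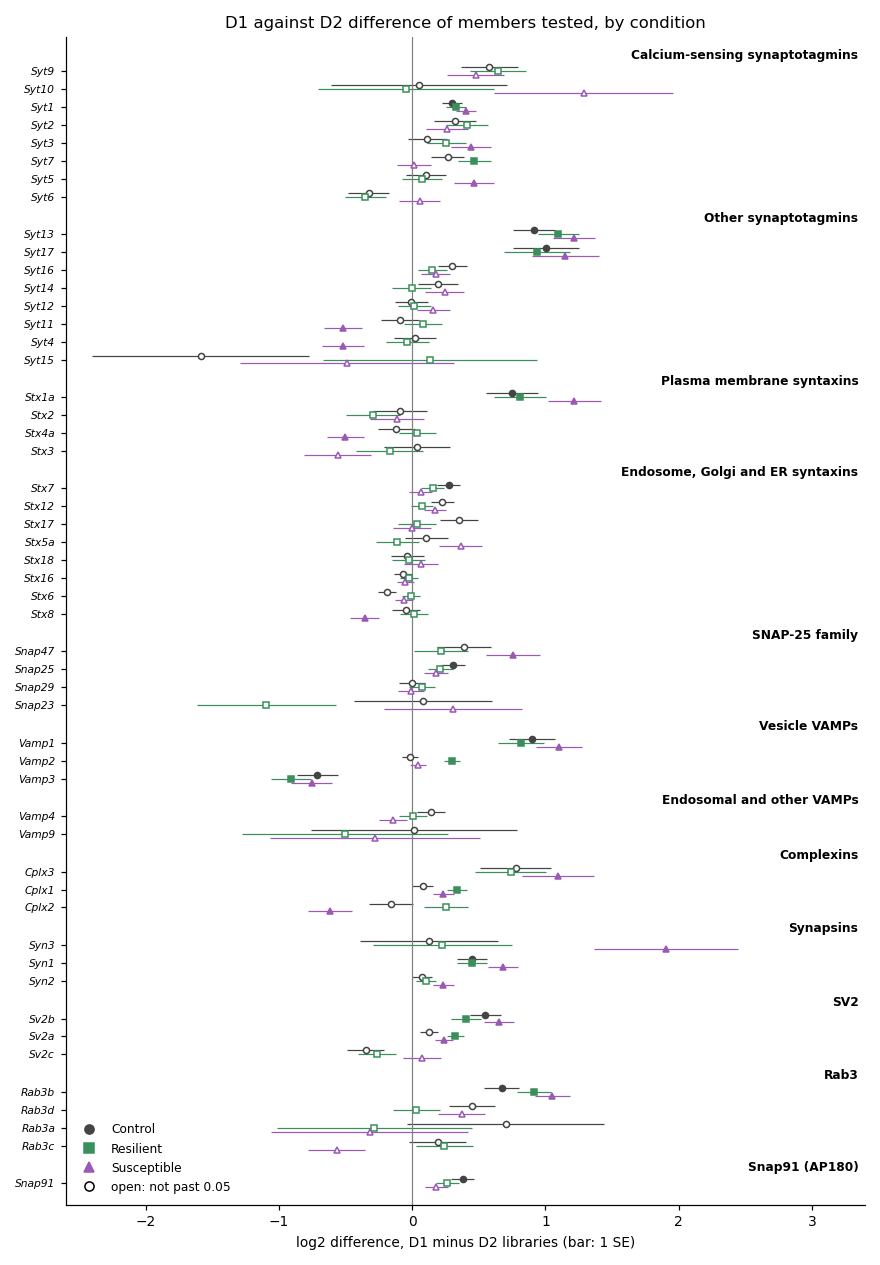
Log2 difference between D1 and D2 libraries for 51 tested members, by role, with 1 SE. Black circles are Control, green squares Resilient and purple triangles Susceptible libraries, filled where the adjusted p was under 0.05. The 8 members higher in D1 in every condition, and Vamp3 on the left, are filled for all 3 conditions.

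The annotated starts of 46 of the 58 members were matched in RefSeq's promoter windows (build GRCm38.p6). The sequence upstream of the start is shown for 4 of the 8 members that were higher in D1 in each condition, because it is the stretch in which shared motifs would be looked for. Sequences run 5′ to 3′ on the gene's strand and exclude annotated exons. Capitals mark a motif match.

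Syn1 (chrX:20921005-20921168, minus strand): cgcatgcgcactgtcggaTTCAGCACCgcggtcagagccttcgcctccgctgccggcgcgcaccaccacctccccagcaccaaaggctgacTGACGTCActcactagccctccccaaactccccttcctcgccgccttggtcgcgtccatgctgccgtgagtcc

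Rab3b (chr4:108878820-108879062, plus strand): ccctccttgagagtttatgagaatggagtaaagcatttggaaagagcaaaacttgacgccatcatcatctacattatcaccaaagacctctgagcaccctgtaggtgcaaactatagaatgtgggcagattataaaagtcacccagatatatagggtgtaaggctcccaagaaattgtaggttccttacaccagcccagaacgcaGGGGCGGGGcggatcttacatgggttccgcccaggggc

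Stx1a (chr5:135023232-135023481, plus strand): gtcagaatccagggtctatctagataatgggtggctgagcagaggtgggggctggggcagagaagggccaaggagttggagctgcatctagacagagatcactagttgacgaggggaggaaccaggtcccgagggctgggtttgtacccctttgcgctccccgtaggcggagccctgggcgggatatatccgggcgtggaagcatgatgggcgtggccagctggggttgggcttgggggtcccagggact

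Vamp1 (chr6:125215331-125215550, plus strand): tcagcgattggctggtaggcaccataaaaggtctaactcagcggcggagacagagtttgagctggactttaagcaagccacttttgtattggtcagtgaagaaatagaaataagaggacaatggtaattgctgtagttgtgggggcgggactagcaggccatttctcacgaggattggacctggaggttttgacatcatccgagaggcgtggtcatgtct

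The first capitals in Syn1 are TTCAGCACC, the left part of the element bound by the repressor REST, which silences neuronal genes outside neurons. That string is in 0.301% of all 32851 promoter windows, both strands searched. The second, TGACGTCA, is the cyclic AMP response element, in 1.55% of windows. Rab3b holds the SP1 string GGGGCGGGG, which is in 10.4% of all windows. It is in some window of 14 of the 46 matched members. These members have 62 windows, so that count is per gene and not per window. The windows of Stx1a and Vamp1 hold none of the 6 strings searched, which also included the EGR string GCGGGGGCG, the AP-1 string TGAGTCA and the NRF1 palindrome. The windows of Sv2b and Syt1, which were also searched and are not shown, hold none of the 6 either. None of the strings is in all 4 windows shown, which says nothing of the factors themselves.

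On the plasma membrane side, Stx1a, one of the neuronal syntaxins that pair with SNAP-25 (chr5:135023482-135051100, GRCm38, plus strand), read 95.1, 112, 102, 95 and 106 CPM in D1 Control libraries and 65.2, 61.9, 62.3, 49.1 and 65.2 in D2 Control libraries. In Resilient libraries it read 107, 107, 101, 106 and 76.1 CPM in D1 and 39.5, 66.8, 53, 62.9 and 60.6 in D2. In Susceptible libraries the values were 68.7, 104, 100.2, 124 and 97.7 CPM in D1 and 21.5, 26.9, 57.6, 50 and 56.9 in D2. No D1 library overlapped a D2 library in any condition, and D2 Susceptible libraries 1 and 2 were the lowest of all. The log2 difference was 0.75 ± 0.195 (SE, adjusted p = 0.0136) in Control, 0.81 ± 0.196 (SE, adjusted p = 0.00728) in Resilient and 1.22 ± 0.198 (SE, adjusted p = 6.79e-05) in Susceptible libraries. Without those 2 libraries the Susceptible difference was 0.88 (adjusted p = 0.00019). Stx2, Stx3 and Stx4a, which serve other routes to the cell surface, did not pass in the averaged comparison, with differences of -0.17, -0.23 and -0.19.

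Snap25 encodes the plasma membrane SNARE that pairs with the neuronal syntaxins. It read 2511, 2801, 3561, 3189 and 3538 CPM in D1 Control libraries and 2497, 2458, 2554, 2197 and 2901 in D2 Control libraries, which overlapped. The difference was 0.31 ± 0.0922 (SE, adjusted p = 0.0329) in Control and 0.23 ± 0.0532 (SE, adjusted p = 0.00114) over the conditions. In Resilient libraries all D1 values lay above all D2 values, but it did not pass there (0.21, adjusted p = 0.229) or in Susceptible libraries (0.18, adjusted p = 0.155). Of the relatives, Snap47 had an averaged difference of 0.45 ± 0.116 (SE, adjusted p = 0.00356). Its exons overlap those of the antisense gene Jmjd4 over 11.6% of their length, so its counts are uncertain. Snap29 and Snap23, of wider use in cells, did not pass, at 0.02 ± 0.0561 and -0.24 ± 0.299.

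Of the 3 vesicle VAMPs, Vamp1 and Vamp2 were higher in D1 in the averaged comparison and Vamp3 was lower. Vamp1, synaptobrevin 1, the minor neuronal form (chr6:125215551-125245964), read 49.7, 46.6, 44.1, 36.9 and 39.6 CPM in D1 Control and 23.9, 21.7, 23.7, 19.5 and 27.4 in D2 Control libraries. In Resilient libraries it read 40.6, 40.2, 41.9, 54.1 and 39.4 CPM in D1 and 21.9, 19.4, 22.4, 26.3 and 32.8 in D2. In Susceptible libraries it read 34, 35.7, 33.5, 40.9 and 45.4 CPM in D1 and 14.3, 10.5, 27.9, 16.3 and 19.4 in D2. The groups did not overlap, and the averaged difference of 0.94 ± 0.0991 (SE, adjusted p = 8.51e-09) is 1.92-fold. Vamp2, synaptobrevin 2, the main vesicle SNARE of the forebrain, differed far less, by 0.11 ± 0.0345 (SE, adjusted p = 0.0168). It read 1237 ± 38.3 CPM (SD, n = 5) in D1 Control and 1250 ± 60.7 in D2 Control, a difference of -0.01 ± 0.0598 (SE, adjusted p = 0.946). In Resilient libraries the classes did part, with 1327, 1394, 1349, 1437 and 1343 CPM in D1 and 1080, 1158, 1141, 1107 and 1089 in D2, which gave 0.30 ± 0.0598 (SE, adjusted p = 0.00109).

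Vamp3, cellubrevin, a form found in most cell types (chr4:151047300-151057963), was the only member lower in D1 in the averaged comparison. It read 10.3, 10.8, 9.87, 9.57 and 10.6 CPM in D1 Control and 16.3, 17, 16.6, 19.5 and 14.2 in D2 Control libraries, with no overlap. The difference was -0.71 ± 0.151 (SE, adjusted p = 0.00202) in Control, -0.91 ± 0.151 (SE, adjusted p = 0.000113) in Resilient and -0.76 ± 0.151 (SE, adjusted p = 0.000665) in Susceptible libraries. Markers of vessel cells and glia moved with it. The 5 endothelial markers (Cldn5, Pecam1, Flt1, Ly6c1, Ly6a) summed to between 13.2 and 36.5 CPM in D1 libraries and between 59.6 and 320.0 in D2 libraries, and all 5 passed as lower in D1. Of 4 mural markers 3 passed as lower, with sums of 6.61 to 24.3 CPM in D1 and 43.7 to 120.4 in D2 libraries. Lower in D1 over the conditions were also 6 of 6 oligodendrocyte markers (sums of 382.6 to 998.5 CPM in D1 and 433.0 to 1894 in D2 libraries), 5 of 6 astrocyte markers (245.3 to 688.3 and 268.8 to 610.5) and 4 of 6 microglial markers (8.18 to 40.1 and 13.02 to 45.5), with sums that overlap between the classes. None of these markers was at 0 in any group, and their part in the Vamp3 difference was not tested.

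Of the 8 calcium-sensing synaptotagmins 5 were higher in D1 in the averaged comparison and none was lower. Syt1, the main calcium sensor for fast release in forebrain neurons (chr10:108497650-109010982), read 1172, 1277, 1486, 1411 and 1457 CPM in D1 Control and 1132, 1075, 1118, 1015 and 1192 in D2 Control libraries. The lowest D1 library lay within the D2 range. Its log2 difference was 0.30 ± 0.0745 (SE, adjusted p = 0.00916) in Control, 0.33 ± 0.0745 (SE, adjusted p = 0.00365) in Resilient and 0.40 ± 0.0745 (SE, adjusted p = 0.000265) in Susceptible libraries. That is a 1.27-fold difference with the conditions averaged. Syt7, the slow sensor that serves asynchronous release, read 162 ± 5 CPM (SD, n = 5) in D1 Control and 135 ± 15.4 in D2 Control. It passed in Resilient libraries (0.47 ± 0.126 (SE, adjusted p = 0.0177)) and in the average (0.25 ± 0.0728 (SE, adjusted p = 0.00999)), but its Susceptible difference was 0.01 ± 0.126. Without D2 Susceptible libraries 1 and 2 it passed there too.

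Syt2, Syt3 and Syt9, 3 further sensors at lower levels, passed in the average at 0.33 ± 0.0905 (SE, adjusted p = 0.0058), 0.27 ± 0.0852 (SE, adjusted p = 0.0162) and 0.57 ± 0.123 (SE, adjusted p = 0.000692). Syt9 read 13, 11.7, 10, 11.6 and 11.1 CPM in D1 Control and 5.49, 7.11, 8.36, 7.47 and 9.99 in D2 Control libraries, just out of each other's range. Syt5, Syt6 and Syt10 did not pass in the average, at 0.21, -0.21 and 0.43. Syt6 lay on the D2 side in Control (-0.33 ± 0.154) and Resilient libraries (-0.35 ± 0.154), where no D1 Resilient library reached a D2 Resilient one.

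In the averaged comparison the largest class differences among all members were in 2 synaptotagmins that do not sense calcium. Syt13 (chr2:92915098-92956058) read 125, 138, 153, 126 and 148 CPM in D1 Control and 60.2, 62.2, 57.7, 77.9 and 109 in D2 Control libraries. Over the 15 D1 libraries it ranged from 96.4 to 153 with a median of 127, and over the 15 D2 libraries from 33.8 to 109 with a median of 60.2. The classes met only where D2 Control library 5, at 109 CPM, passed D1 Susceptible library 1, at 96.4. The log2 difference was 0.91 ± 0.157 (SE, adjusted p = 0.000195) in Control, 1.10 ± 0.157 (SE, adjusted p = 1.5e-05) in Resilient and 1.22 ± 0.158 (SE, adjusted p = 3.04e-06) in Susceptible libraries. The last was 1.23 (adjusted p = 0.000271) without the 4 libraries that stand apart. D2 Control library 5 also had the highest level of D1 markers among D2 Control libraries, at 1236 CPM, and of interneuron markers, at 308.3.

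Syt17, a synaptotagmin without a membrane anchor (chr7:118380717-118448222), read 19.2, 15, 22.1, 13.9 and 14.8 CPM in D1 Control and 6.08, 8, 7.51, 10.9 and 10 in D2 Control libraries. Its averaged difference of 1.03 ± 0.143 (SE, adjusted p = 1.36e-06) is 2.04-fold. Syt16 was the third of this group to pass, at 0.21 ± 0.0636 (SE, adjusted p = 0.0126). The abundant Syt11 and Syt4, which act on other trafficking vesicles, did not pass in the average. Syt11 read 1646 ± 99.9 CPM (SD, n = 5) in D1 Control and 1751 ± 364 in D2 Control. Syt4 read 401 ± 62.2 and 395 ± 43.4. Neither passed in Control libraries, at -0.09 ± 0.142 and 0.02 ± 0.158.

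Of the 3 synapsins, Syn1 and Syn2 were higher in D1 in the average, and the rare Syn3 did not pass (0.75, adjusted p = 0.0594). Syn1, the phosphoprotein that ties vesicles into the reserve pool (chrX:20860511-20921004), read 456, 471, 498, 458 and 440.1 CPM in D1 Control and 359, 333, 348, 291 and 367 in D2 Control libraries. In Resilient libraries it read 437, 446, 479, 422 and 393 CPM in D1 and 276, 329.7, 322, 358 and 313 in D2. In Susceptible libraries it read 388, 444, 401, 469 and 456 CPM in D1 and 198, 204, 341, 270.3 and 331 in D2. The classes were apart in every condition, by 0.45 ± 0.113 (SE, adjusted p = 0.00934) in Control, 0.45 ± 0.113 (SE, adjusted p = 0.0103) in Resilient and 0.68 ± 0.113 (SE, adjusted p = 7.61e-05) in Susceptible libraries. The promoter that carries the REST string and the response element is that of this gene. Syn2 read 577 ± 25.5 CPM (SD, n = 5) in D1 Control and 549.5 ± 39 in D2 Control, and its averaged difference was 0.14 ± 0.044 (SE, adjusted p = 0.0187). Syn1 was therefore a larger share of the synapsins in D1, at 63.1% ± 0.798 (SD, n = 5) against 56.8% ± 1.76 in Control libraries.

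The SV2 proteins split by isoform. Sv2b, a form of many excitatory terminals (chr7:75114894-75309262), read 301, 324, 414, 381 and 388 CPM in D1 Control and 241, 248, 258, 206 and 283 in D2 Control libraries, with no overlap. The difference was 0.55 ± 0.114 (SE, adjusted p = 0.00167) in Control, 0.40 ± 0.114 (SE, adjusted p = 0.0247) in Resilient and 0.65 ± 0.114 (SE, adjusted p = 0.000143) in Susceptible libraries. Sv2a, the form in nearly all synapses, differed less, by 0.23 ± 0.0376 (SE, adjusted p = 1.7e-05) in the average. Sv2c, the form enriched in the basal ganglia, lay on the D2 side in Control and Resilient libraries without passing. It read 228, 192, 191, 205 and 183 CPM in D1 Control and 289, 276, 289, 212 and 209 in D2 Control libraries, a difference of -0.35 ± 0.142 (SE, adjusted p = 0.139). In Resilient libraries, where 208, 204, 206, 219 and 199 CPM stood against 235, 233, 268, 271 and 233, the groups did not overlap, but the adjusted p was 0.419. In Susceptible libraries it read 244 ± 54.1 CPM (SD, n = 5) in D1 and 232 ± 62.2 in D2, a difference of 0.07 ± 0.142. The values were 311, 195, 207, 212 and 293 CPM in D1 and 191, 155, 309, 228 and 276 in D2. D1 Susceptible libraries 1 and 5 were thus the highest of their group, and D2 Susceptible libraries 1 and 2 the lowest of theirs.

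Among the Rab3 GTPases Rab3b (chr4:108879063-108943324) differed most. It read 114, 112, 124, 118 and 99.2 CPM in D1 Control and 59.3, 68.1, 67.7, 61 and 100 in D2 Control libraries, which touched at a single D2 library. The difference was 0.67 ± 0.13 (SE, adjusted p = 0.000783) in Control, 0.92 ± 0.13 (SE, adjusted p = 1.35e-05) in Resilient and 1.05 ± 0.131 (SE, adjusted p = 1.42e-06) in Susceptible libraries. The last was 1.02 (adjusted p = 8.29e-06) without the 4 libraries that stand apart. Rab3c is by far the most abundant of the 3 that can be read. It read 1066 ± 164 CPM (SD, n = 5) in D1 Control and 934 ± 167 in D2 Control and did not pass in any condition. Rab3d, known from secretory granules, passed in the average at 0.28 ± 0.101 (SE, adjusted p = 0.0327). Exons of the antisense gene 8030443G20Rik overlap part of those of Rab3b, and the strand setting is not given, so its counts are uncertain to that extent.

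Complexins 1 and 3 were higher in D1, and complexin 2 was not. Cplx1, which clamps and then promotes fusion, read 452 ± 31.1 CPM (SD, n = 5) in D1 Control and 427 ± 19.2 in D2 Control, and passed in Resilient (0.34 ± 0.0785 (SE, adjusted p = 0.00511)) and Susceptible libraries (0.23 ± 0.0785 (SE, adjusted p = 0.0291)). Cplx3, best known from ribbon synapses of the retina, read 34.7, 52.1, 45.8, 42.5 and 51.1 CPM in D1 Control and 24.9, 28.9, 16.7, 25.4 and 35.9 in D2 Control, which overlapped at the edge. Its averaged difference was 0.87 ± 0.154 (SE, adjusted p = 7.24e-05). Cplx2 read 1959, 2786, 2416, 2648 and 2780 CPM in D1 Control and 2805, 2518, 2625, 3777 and 2328 in D2 Control, a difference of -0.16 ± 0.163 (SE, adjusted p = 0.693).

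Endosomal, Golgi and ER syntaxins differed little between the classes. Of 8 tested, Stx7 and Stx12, both of endosomes, passed in the average, at 0.16 ± 0.0494 (SE, adjusted p = 0.0119) and 0.16 ± 0.0483 (SE, adjusted p = 0.0133), and the other 6 did not. The median of the 8 was 0.06. Vamp4 and Vamp9, the 2 tested VAMPs of other compartments, did not pass, at 0.00 ± 0.0611 and -0.26 ± 0.449. Snap91, or AP180, is a clathrin adaptor that belongs to the set by its symbol alone and is no SNARE. It read 373, 405, 517, 441 and 470.2 CPM in D1 Control and 337, 309, 323, 348 and 376 in D2 Control libraries, and its averaged difference was 0.27 ± 0.0498 (SE, adjusted p = 7.58e-05).

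**Figure D3:**
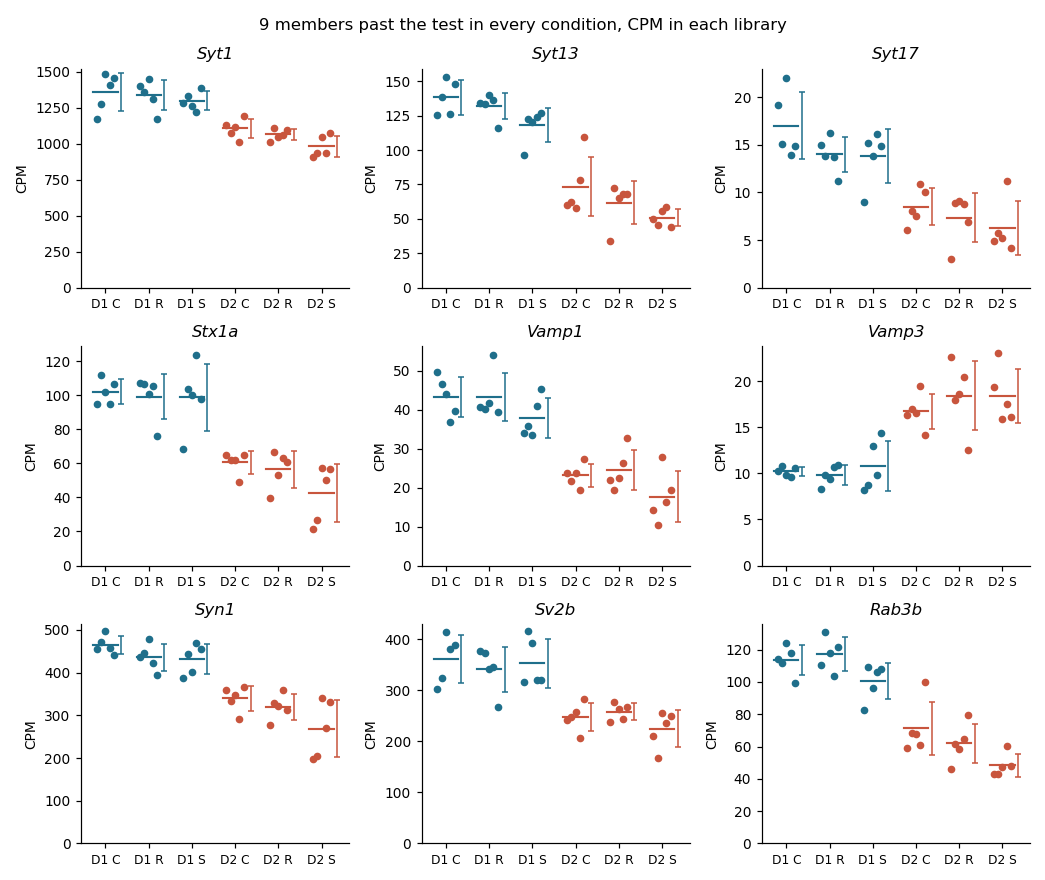
CPM of the 9 members that passed between D1 (blue) and D2 (red) libraries in each condition, for Control (C), Resilient (R) and Susceptible (S) groups of 5. Points are libraries, lines means and bars 1 SD. Stx1a, Syn1 and Vamp1 show no overlap between the classes, and Vamp3 is the one panel with D2 above D1.

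Markers of other neurons moved with the class too. The 5 glutamatergic markers (Slc17a7, Slc17a6, Tbr1 and Neurod6 among them) summed to between 482.7 and 925.4 CPM in D1 libraries and between 142.2 and 526.1 in D2 libraries, and all 5 passed as higher in D1 over the conditions. The 8 interneuron markers (Pvalb, Sst, Npy, Nos1, Vip, Kit, Th, Lhx6) summed to between 326.2 and 522.3 CPM in D1 libraries and between 81.9 and 308.3 in D2 libraries. Of these, 7 passed as higher and 1 as lower in D1, and no marker of either list was at 0 in any group. In pooled pull-down libraries such as these, fewer cells of a type and less RNA per cell cannot be told apart. The source of the marker RNA was not tested.

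In edgeR fits with the mean marker level as a covariate, which were added after seeing the data, most class calls were lost. With the glutamatergic markers 5 members passed in the average (5.02% of genes), and 4 of them were members that had passed without it. Those were Rab3b at 0.61 (adjusted p = 0.00871), Vamp1 at 0.88 (adjusted p = 0.011), Syt13 at 0.54 (adjusted p = 0.0225) and Vamp3 at -0.60 (adjusted p = 0.0338). Cplx3, at -0.23, and Snap25, at -0.02, changed sign. With the interneuron markers 0 members passed at the adjusted threshold, 2 had an unadjusted p under 0.05, and 16 genes in all passed (0.0826%). As the interneuron marker sums of D1 libraries lay above those of all D2 libraries, marker level and class cannot be told apart in that fit.

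**Figure D4:**
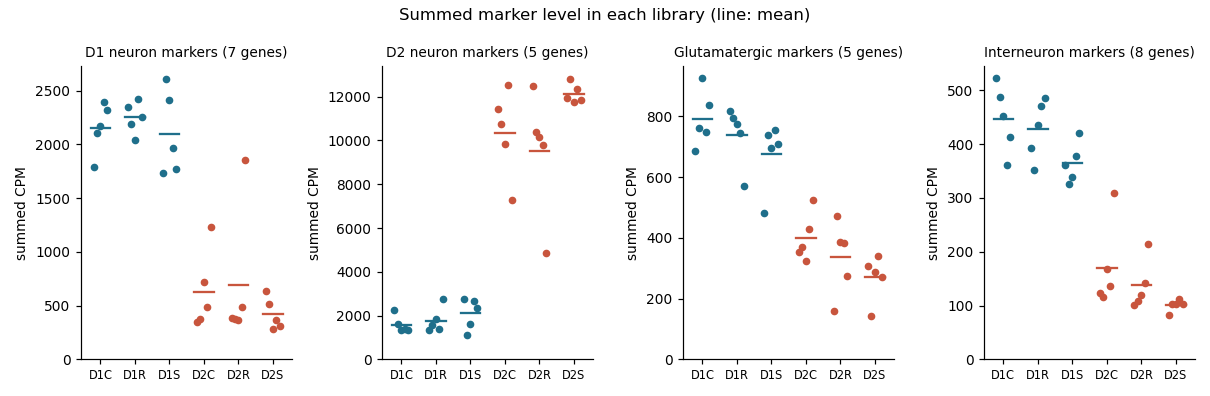
Summed CPM of 4 marker lists in each library, by group (C Control, R Resilient, S Susceptible), with the mean as a line. D1 (blue) and D2 (red) libraries separate on the D2 neuron and interneuron lists without overlap, and D2 Resilient library 5 lies apart on both class lists.

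Between the classes 12 members (23.1%) passed in Susceptible libraries and in neither other condition, as did 16.1% of all genes. More of all genes passed in Susceptible libraries, 23.9% against 8.3% in Control and 6.65% in Resilient libraries, so this counts passes and shows no difference between conditions. Of the 12, 5 were lower in D1: Cplx2, Syt11, Syt4, Stx4a and Stx8. In D2 Susceptible libraries Cplx2 read 5718, 5004, 2725, 3134 and 2549 CPM, against 2463, 2628, 2681, 2580 and 2126 in D1 Susceptible libraries, a difference of -0.62 ± 0.164 (SE, adjusted p = 0.00723). Libraries 1 and 2 were the 2 high ones. The same 2 libraries were the highest of the group for Syt11 (3065, 2775, 1547, 1811 and 1555 CPM), Syt4 (786, 650.4, 358, 403 and 378 CPM), Stx4a (98.4, 80.6, 53.7, 64.6 and 48.9 CPM) and Stx8 (41.7, 41.3, 26.3, 38.2 and 32.1 CPM). Without them none of the 5 passed, with differences of -0.14 for Cplx2, -0.10 for Syt11, -0.06 for Syt4, -0.17 for Stx4a and -0.18 for Stx8. Those 2 libraries also held the epidermal keratin genes Krt5, Krt14 and Krt10 at 181.7 and 325.8 summed CPM, against 16.6 to 37.0 in the other 28.

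The other 7 members that passed in Susceptible libraries only, Syn2, Syn3, Syt3, Syt5, Snap47 and Cplx3 among them, were all higher in D1. Syt5 read 294, 304, 299.7, 354 and 288 CPM in D1 and 151, 124, 294, 271 and 279 in D2 Susceptible libraries. Here libraries 1 and 2 of D2 were the lowest, and without them the difference moved from 0.46 (adjusted p = 0.0249) to 0.16 (adjusted p = 0.329). Syn3, the rare synapsin, read 13, 2.7, 3.45, 4.7 and 4.64 CPM in D1 and 0.902, 0, 2.9, 1.41 and 2.23 in D2. Its highest value came from D1 Susceptible library 1, in which Gm42418 took more than the other genes together, and its 0 from D2 Susceptible library 2. The difference was 1.90 ± 0.539 (SE, adjusted p = 0.0108), and 0.84 (adjusted p = 0.0487) without the 4 libraries that stand apart. Without D1 Susceptible library 1 alone it did not pass. None of the 12 was shown to differ in its class difference between conditions: no member passed in the 3 tests of D1 minus D2 change.

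No member passed between conditions within either class. In D1 the counts were 0 of 52 for Susceptible against Control, Resilient against Control and Susceptible against Resilient (edgeR), where 0% of all genes passed in each. At an unadjusted p under 0.05 there were 2, 1 and 3 members, or 3.85%, 1.92% and 5.77%, beside 2.40%, 2.60% and 3.48% of all genes. DESeq2 called 0 members in each. The smallest p in D1 was that of Vamp2 in Susceptible against Resilient, with 1131, 1173, 1227, 1308 and 1222 CPM against 1327, 1394, 1349, 1437 and 1343. Every Susceptible library lay below every Resilient one, and the difference was -0.18 ± 0.0598 (SE, edgeR adjusted p = 0.856). Such a separation was seen for 1.12% of genes. In Resilient against Control every Resilient library lay above every Control library, as for 1.54% of genes. The voom fit with library weights called Vamp2 in both comparisons. It called 0.0723% of genes in Susceptible against Resilient and 0.929% in Resilient against Control. Snap23 also separated in Susceptible against Resilient, the other way: it read 2.64, 3, 2.4, 2.83 and 3.65 CPM in Susceptible and 2.31, 1.99, 2.25, 1.67 and 1.62 in Resilient libraries, a difference of 0.56 ± 0.522 (SE, edgeR adjusted p = 1). No member separated in D1 Susceptible against Control (0.888% of genes).

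The next in D1 were Syt10 and Sv2c, higher in Susceptible than in Control libraries by 1.49 ± 0.677 and 0.28 ± 0.142, and Stx7 and Stx8, lower by 0.19 ± 0.0856 and 0.21 ± 0.107. The adjusted p was 1 for each. The Syt10 value rests on 1 library: the 5 D1 Susceptible libraries read 13.6, 1.44, 2.22, 1.34 and 2.2 CPM. Library 1 is the one dominated by Gm42418, which took 5.46% of gene counts in library 5. Libraries 1 and 5 were the highest of the group for Sv2c, at 311 and 293 CPM against 195 to 212. They were the lowest for Stx7, at 112 and 110 CPM against 132 to 148. The same held for Stx8, at 25.5 CPM in each against 27.4 to 31.2. Without the 4 libraries that stand apart, 0 members had an unadjusted p under 0.05 in Susceptible against Control, beside 710 of 20339 genes. Syt14, higher in Susceptible than in Resilient libraries by 0.32 ± 0.148, and Rab3b, lower by 0.22 ± 0.129, did not pass either. Syt14 was likewise highest in Susceptible libraries 1 and 5, at 19.7 and 19.1 CPM against 11.4 to 16.5. In Resilient against Control Stx6 was at 0.13 ± 0.0685, Rab3d at -0.21 ± 0.175 and Syt17 at -0.28 ± 0.244, each with an adjusted p of 1.

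In D2 more members had a small unadjusted p, but none passed. For Susceptible against Control 0 of 52 passed (edgeR; 0.00516% of genes), while 16 members, or 30.8%, had an unadjusted p under 0.05, beside 15.7% of all genes. For Susceptible against Resilient 0 passed (0.0516% of genes, 0.0258% in each direction), and 14 members, or 26.9%, had such a p, beside 19.1% of genes. For Resilient against Control 0 passed (0% of genes) and 3 had such a p. Without D2 Susceptible libraries 1 and 2, 5 members had such a p in Susceptible against Control, beside 1144 of 20427 genes. In Susceptible against Resilient there were then 2, beside 1113 of 20427 genes. DESeq2 called 1 member in Susceptible against Control (Rab3b; 1.54% of genes), 5 in Susceptible against Resilient (Cplx2, Rab3c, Syt11, Syt5 and Syt7; 5.24%) and 0 in Resilient against Control. With edgeR, leaving out D2 Susceptible library 3 gave 6 calls against Control (4.19% of genes) and 11 against Resilient (9.93%). The latter count was 9 without D2 Susceptible library 5 (8.11%), 2 without library 4 (2.08%) and 1 without D2 Control library 4 (0.618%), and 0 without libraries 1 and 2 together. The smallest adjusted p of any member was 0.0554, for Cplx2 in Susceptible against Resilient. It read 5718, 5004, 2725, 3134 and 2549 CPM in Susceptible and 2454, 2145, 2289, 2057 and 2512 in Resilient libraries. All Susceptible libraries were above all Resilient ones (1.5% of genes), but the 2 highest lay far above the other 3. The difference of 0.74 ± 0.164 was 0.29 without libraries 1 and 2 (adjusted p = 0.871).

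Rab3b and Syt13, which were higher in D1, were also lower in D2 Susceptible than in D2 Control libraries without passing. Rab3b read 43, 43.2, 47.5, 60.5 and 48.1 CPM against 59.3, 68.1, 67.7, 61 and 100, a difference of -0.56 ± 0.13 (adjusted p = 0.118). Syt13 read 49.9, 45.7, 55.9, 58.3 and 44.4 CPM against 60.2, 62.2, 57.7, 77.9 and 109, a difference of -0.53 ± 0.156 (adjusted p = 0.159). The groups overlapped narrowly in both genes. The highest Control value of each was that of D2 Control library 5, in which D1 markers summed to 1236 CPM and interneuron markers to 308.3. Without Susceptible libraries 1 and 2 the differences were -0.46 (adjusted p = 0.624) and -0.48 (adjusted p = 0.765). The sums of D1 neuron markers had a median of 367.7 CPM in D2 Susceptible and 487.7 in D2 Control libraries. Those of the interneuron markers had medians of 102.6 and 135.8 CPM. In Susceptible libraries 1 and 2 the D1 marker sums were 636.8 and 515.5 CPM, and the part of these markers in the 2 genes' values was not tested.

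Cplx2 and Rab3c lay the other way, at 0.44 ± 0.164 and 0.59 ± 0.215 in D2 Susceptible against Control. Rab3c read 2453, 1996, 765, 1004 and 827 CPM in the Susceptible libraries and 934 ± 167 (SD, n = 5) in Control. The differences were -0.01 for Cplx2 and -0.12 for Rab3c without libraries 1 and 2. Syt7, at 0.45 ± 0.126, Syt5, at -0.47 ± 0.15, and Vamp1, at -0.47 ± 0.171 in Susceptible against Resilient, were then at 0.10, -0.15 and -0.22. The members' summed level ranged from 14974 to 21160 CPM in D2 Susceptible libraries and from 15182 to 17024 in D2 Control libraries.

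In D2 Resilient against Control the leading members were Vamp2 and Cplx1. Vamp2 read 1080, 1158, 1141, 1107 and 1089 CPM against 1265, 1239, 1211, 1346 and 1190, and Cplx1 read 319, 363, 404, 382 and 372 against 455, 412, 420.5, 409.9 and 438. In both genes every Resilient library lay below every Control library, a separation seen for 1.31% of genes. The differences were -0.17 ± 0.0598 and -0.22 ± 0.0785, each with an edgeR adjusted p of 1. On the other side Snap23 was at 0.81 ± 0.518 and Stx12 at 0.10 ± 0.0836.

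**Figure D5:**
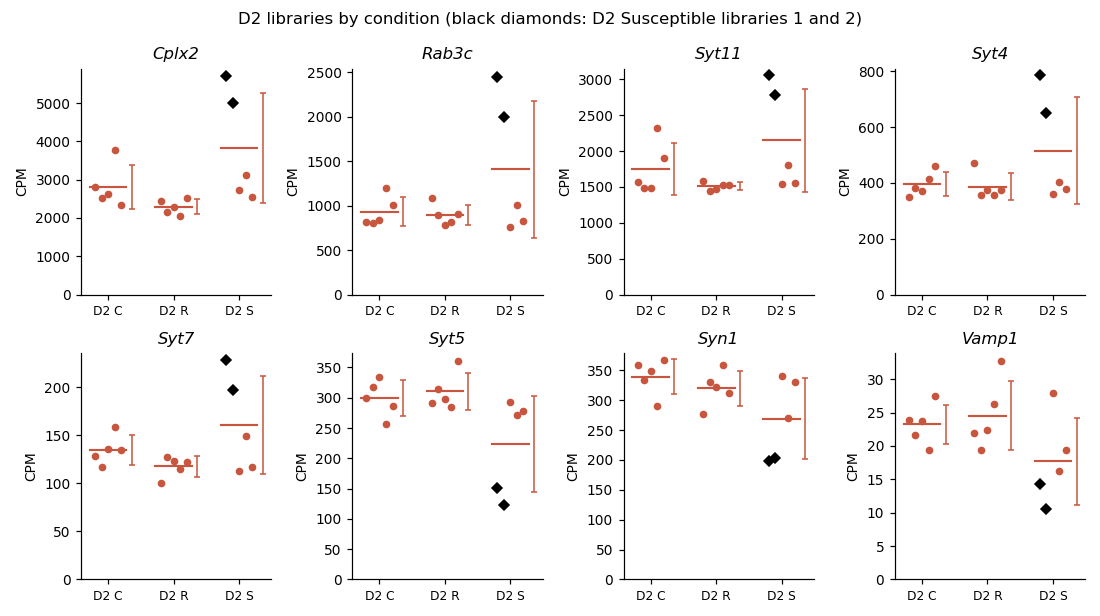
CPM of 8 members in the D2 libraries by condition (C Control, R Resilient, S Susceptible), with the mean as a line and 1 SD as a bar. Black diamonds are D2 Susceptible libraries 1 and 2, which lie above the others for Cplx2, Rab3c, Syt11, Syt4 and Syt7 and at or near the bottom for Syt5, Syn1 and Vamp1.

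Whether stress moved a member differently in the 2 classes was tested as the D1 minus D2 change. For Susceptible against Control, Resilient against Control and Susceptible against Resilient 0 members passed (edgeR; 0% of genes each), and DESeq2 called 0 in each. At an unadjusted p under 0.05 there were 7, 3 and 10 members, or 13.5%, 5.77% and 19.2%, beside 7.79%, 4.99% and 12.4% of all genes. Without D2 Susceptible libraries 1 and 2 there were 2, 6 and 5 members, beside 743, 1893 and 1082 of 20427 genes. The leading value in Resilient against Control was that of Vamp2, at 0.31 ± 0.0846 (edgeR adjusted p = 0.621). It joins a higher mean of Vamp2 in D1 Resilient libraries (0.15 ± 0.0598) to a lower one in D2 Resilient libraries, neither of which passed. The voom fit with library weights called it (0.826% of genes). In Susceptible against Control the leading values were Syn3 at 1.78 ± 0.742, Sv2c at 0.42 ± 0.2, Rab3c at -0.76 ± 0.304 and Syt4 at -0.54 ± 0.224. Without D2 Susceptible libraries 1 and 2 they were 1.22 for Syn3, 0.20 for Sv2c, -0.04 for Rab3c and -0.09 for Syt4. Without the 4 libraries that stand apart they were 0.72, 0.10, -0.02 and -0.06. In Susceptible against Resilient the leading value was that of Cplx2, at -0.87 ± 0.231 (adjusted p = 0.22), which passed when D2 Susceptible library 3 was left out and was -0.42 (adjusted p = 0.908) without libraries 1 and 2.

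Genes that work beside the members gave the class comparison a wider frame. The share of all genes higher in D1 was 13.8%, as above. Of 27 priming and active zone genes 26 were tested, and 16 were higher and 4 lower in D1 over the conditions, with a median of 0.27. Cadps2, a priming factor for dense-core vesicles, differed by 1.38 ± 0.11 (SE, adjusted p = 4.11e-11). Doc2a, a high-affinity calcium sensor, differed by 1.33 ± 0.162 (SE, adjusted p = 1.63e-07), and Rph3a, the Rab3 effector rabphilin, by 1.24 ± 0.109 (SE, adjusted p = 3.42e-10). The 4 lower in D1 were Unc13b, Unc13c, Stxbp2 and Stxbp3.

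Of 18 vesicle membrane and transporter genes 17 were tested, and 10 were higher and 1, Syngr2, lower in D1, with a median of 0.30. Syp, synaptophysin, differed by 0.40 ± 0.0511 (SE, adjusted p = 2.66e-07), and Slc17a7, the vesicular glutamate transporter VGLUT1 and also one of the glutamatergic markers, by 1.14 ± 0.129 (SE, adjusted p = 6.41e-08). Slc32a1, the vesicular GABA transporter that medium spiny neurons use, did not pass, at -0.05 ± 0.114 (SE, adjusted p = 0.777). Of 22 endocytosis genes 12 were higher and 1, Sh3gl3, lower, with a median of 0.22. Sh3gl2, endophilin A1, differed by 0.65 ± 0.0643 (SE, adjusted p = 2.41e-09) and Amph, amphiphysin, by 0.50 ± 0.0587 (SE, adjusted p = 7.94e-08). Of 16 genes for SNARE disassembly and other SNAREs 5 were higher and 1, Vti1b, lower, with a median of 0.01. Nsf, the ATPase that takes SNARE complexes apart, was among the 5, at 0.29 ± 0.0511 (SE, adjusted p = 5.76e-05).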

How the data were processed

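The values are raw counts per gene and library, as the authors deposited them, with no normalization. Per the submitters' processing notes, HISAT2 and HTSeq were used with the mouse genome GRCm38 (mm10). Their versions, the annotation, strand setting and counting mode: not given in the sources used here. Lines that name no gene, 10.1% to 53.3% of a library, were left out. Genes were filtered with filterByExpr (minimum count 10, minimum total 15), scaled with the TMM method and compared in 1 fit of the 6 groups by the quasi-likelihood test of edgeR 4.0.16 (R 4.3.3), and p-values were adjusted by Benjamini-Hochberg over 19368 genes. A difference passed at an adjusted p under 0.05. CPM are on TMM-scaled sizes. Alternatives used DESeq2 1.42.0, limma 3.58.1 (voom), other scaling, no filter, only the groups compared, the replicate number as a block, and libraries left out. Nothing says that the pools of a group were from separate cohorts, so p-values measure the spread between these pools. The members and gene lists were chosen with earlier results of these data known. By rule the text names members that passed (up to 12 per comparison and direction), 18 fixed members and, in each stress comparison, those with the 2 smallest p in each direction; others were named after their values were seen, to complete a family. Results of a few genes are not reported here.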

Additional observations from a re-analysis of the deposited data

Results flagged for a closer look

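In 22 of 246 groups of 5 libraries, over 41 genes, the highest or lowest library stood apart from the other 4 by Dixon's test at the 95% level. Chance alone gives about 1 in 20 groups. All values are CPM.

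Several came from libraries already named. In D1 Susceptible library 1, in which Gm42418 takes most counts, Syn3 was at 12.99 (others 2.70 to 4.70), Syt10 at 13.6 (others 1.34 to 2.22) and Syt13 at 96.39 (others 120.4 to 126.9). In D2 Susceptible library 1 Syt9 was at 3.779 (others 7.71 to 8.59), and in library 2 Syt16 was at 115.8 (others 75.8 to 81.1). In D2 Control library 5, which has the most D1 marker RNA of its group, Rab3b was at 99.99 (others 59.3 to 68.1) and Stx8 at 38.34 (others 31.4 to 33.1).

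D1 Resilient library 5 stood apart for 4 members. Snap47 was at 222.6 (others 300.8 to 312.7), Stx1a at 76.12 (others 100.6 to 107.0) and Syt13 at 115.7 (others 133.6 to 139.7), all low, and Syt11 was high at 1802 (others 1530 to 1563). D2 Control library 4 was low for the same pair, Snap47 at 140.9 (others 250.9 to 269.2) and Stx1a at 49.13 (others 61.9 to 65.2). In D2 Resilient library 1 Syt13 was low at 33.84 (others 65.4 to 72.4) and Syt4 high at 469.8 (others 356.7 to 375.1). In D1 Control library 2 Syt3 was at 72.13 (others 56.8 to 59.9) and Syt5 at 366.4 (others 303.8 to 314.8).

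The rest were single values. Snap23 was at 4.738 in D1 Control library 1 (others 1.63 to 2.32), Syn2 at 619.4 in D1 Susceptible library 5 (others 572.9 to 586.3) and Syt5 at 353.8 in D1 Susceptible library 4 (others 288.3 to 304.5). Syt17 was at 11.18 in D2 Susceptible library 4 (others 4.21 to 5.78), and Vamp1 at 54.11 in D1 Resilient library 4 (others 39.4 to 41.9).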

How the results depend on the processing

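Leaving out each library in turn gave between 10 and 15 members called between the classes in Control, among 981 to 2151 genes. In Resilient it gave 10 to 16, among 960 to 1689 genes. In Susceptible it gave 18 to 26 (3508 to 6218 genes) and in the average 25 to 30 (5161 to 6622). Between conditions it gave 0 to 6 in D2 Susceptible against Control (0 to 828 genes) and 0 to 11 in D2 Susceptible against Resilient (0 to 1964). In the D1 minus D2 change for Susceptible against Resilient it gave 0 to 1 (0 to 156 genes), and 0 members elsewhere. Same-numbered libraries of different conditions within a class showed no pairing. Correlations of their deviations ran from -0.0848 to 0.0779 over 30 pairs, and 5 of 30 libraries were closest to their own number. No correlation was computed between D1 and D2 libraries of the same number, so pairing across the classes was not tested in this way. With the replicate number as a block, 11, 14, 23 and 26 members were called in Control, Resilient, Susceptible and the average. The shares of all genes called were 7.73%, 6.35%, 21.5% and 27.5%.

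The voom fit with library weights called 27 members in Control (28.5% of genes), 22 in Resilient (17.6%) and 20 in Susceptible libraries (17%). Of those 20, 18 were higher and 2 lower in D1, and 13 were among the members called in the main fit. Between conditions it called only Vamp2, in D1 Resilient against Control (0.929% of genes) and in D1 Susceptible against Resilient (0.0723%). Vamp2 was also its only call in the D1 minus D2 change for Resilient against Control (0.826%). This fit turned Syt4 in Susceptible libraries to 0.00842. DESeq2 called 1 in D2 Susceptible against Control (1.54% of genes) and 5 in D2 Susceptible against Resilient (5.24%). With only the groups compared in the fit, 10 were called in Susceptible libraries (5.48% of genes). With D2 Susceptible libraries 1 and 2 left out, 21 were called in Control (15.3% of genes) and 15 in Susceptible (10.4%). Without the 4 libraries that stand apart the counts were the same, beside 16.2% and 10.6% of genes. Rab3c and Cplx2 in D2 Susceptible against Control then turned to -0.117 and -0.0105 without the 2, and to -0.1145 and -0.00726 without the 4.

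In the covariate fits the covariate differs between the classes in the same libraries, and the cause was not tested. With the glutamatergic covariate 0, 1, 4 and 5 members were called in Control, Resilient, Susceptible and the average. The shares of all genes called were 1.98%, 2%, 5.01% and 5.02%. Sv2b in Resilient turned to -0.000436 and Cplx3 in Susceptible to -0.114, and in the average Cplx3 turned to -0.23, Snap25 to -0.0162, Stx12 to -0.0156 and Rab3d to -0.0212. With the interneuron covariate 0 were called in each of the 4, beside 0.243%, 0.0826%, 0.00516% and 0.0826% of all genes. Stx4a in Susceptible then turned to 0.17, and in the average Syt9 turned to -0.342, Syt2 to -0.196 and Syt3 to -0.000464. These fits were chosen after seeing the data.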
